A study of Mus musculus with 7 samples.

Results

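Accessible chromatin regions that carried a peak in both Erg-deficient pre-proB libraries and none in the WT pre-proB library were collected from 7 ATAC-seq libraries of mouse bone marrow B-lineage cells, and are called opened regions here. Overlapping peaks of the 7 lists were merged into 145247 union regions on mm10 (GRCm38), and 8203 of them, or 5.65%, were opened regions. They were chosen by the peak calls of the 3 pre-proB libraries, so the presence or absence of a peak in those libraries is a description of the choice and not a result. WT cells of the genotype Ergfl/fl, with no Cre, were taken as pre-proB, proB or preB cells. The Erg KO pre-proB cells were Rag1CreT/+;Ergdelta/delta, in which a lymphoid Cre had removed Erg from lymphoid progenitors onwards. The Rescue cells were Rag1CreT/+;Ergdelta/delta;IgHVH10tar, which adds a prearranged immunoglobulin heavy chain allele to the same deletion, and all 3 stages were again profiled. No age was given in the labels for these samples, no Cre-only library and no WT library with the heavy chain allele was analysed here, and Cre and the deletion cannot be told apart.

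Each of the 7 groups had 1 library, so no spread between animals could be measured and no significance test was made. The 95% Wilson intervals given below cover counting error only and treat regions as independent. Stages follow the sample titles, but the source names of all 3 Rescue libraries named another stage. Of the 12968 regions with a peak in Erg KO and none in WT pre-proB, 63.3% had a peak in the library titled Rescue pre-proB, against 24.7% in Rescue proB and 23.2% in Rescue preB. Over all 145247 union regions the same libraries had a peak in 101428 regions, in 59.1% and in 55.1%. The 63.3% are the regions that the rule chose, so these shares do not decide between titles and source names. With stages read from the source names, only 3007 regions met the rule. Promoters of 9 of the 10 genes used to check the pre-proB label, which include the markers of the sort, carried a peak in each of the 3 pre-proB libraries. All 10 did so in each of the 4 later libraries, so these promoters do not separate pre-proB from later cells.

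Open chromatin is where transcription factors reach DNA, and progenitors of B, T and innate lymphoid cells keep many regulatory elements of the alternative fates accessible before commitment. In B-cell progenitors the ETS factors Erg and PU.1, the E proteins, Ebf1 and Pax5 act together to open B-lineage elements and to close those of other lineages, and RUNX, IRF and OCT factors bind many of the same elements. A gene segment of an antigen receptor locus becomes accessible before it is recombined, and the T-cell receptor alpha segments are normally used in thymocytes.

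Sequences of 5 opened regions are shown as examples from among the strongest members of the patterns described below. Each covers 120 bp on either side of the Erg KO summit on the plus strand of GRCm38, from RefSeq. Capitals mark the binding patterns searched for, on either strand. The Trav14d-3-dv8 region is the strongest of all, and its window at chr14:53080574-53080814 holds the 2 E-box patterns CAGCTG and CACCTG. The Trav6n-6 region, with its window at chr14:53139699-53139939, and the Cp region, at chr3:19945807-19946047, are the strongest with no peak at any later stage when at most 1 region per 500 kb is taken. The former holds RUNX, IRF and E-box patterns and the latter ETS, TCF/LEF and E-box patterns. The H2al2a region, at chr2:17931984-17932224, and the 9130401M01Rik region, at chr15:58019577-58019817, were open in all 4 later libraries, and hold a PU.1 and an IRF pattern respectively. None of the 5 windows holds the EBF1 pattern. The Trav14d-3-dv8 window is internally repetitive, with a run of 12 bases that occurs 3 times. All 5 regions lie outside annotated genes and are named by the nearest start site of a coding or antigen receptor gene.
Trav14d-3-dv8: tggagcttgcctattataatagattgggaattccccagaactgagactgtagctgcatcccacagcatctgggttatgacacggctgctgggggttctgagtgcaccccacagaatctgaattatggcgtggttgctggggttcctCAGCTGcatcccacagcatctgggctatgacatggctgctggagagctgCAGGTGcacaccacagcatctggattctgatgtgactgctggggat
Trav6n-6: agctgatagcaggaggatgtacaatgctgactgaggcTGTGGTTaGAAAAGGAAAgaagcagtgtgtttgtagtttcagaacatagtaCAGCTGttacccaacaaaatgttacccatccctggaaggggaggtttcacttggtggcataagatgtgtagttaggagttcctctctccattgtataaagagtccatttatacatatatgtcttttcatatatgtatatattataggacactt
Cp: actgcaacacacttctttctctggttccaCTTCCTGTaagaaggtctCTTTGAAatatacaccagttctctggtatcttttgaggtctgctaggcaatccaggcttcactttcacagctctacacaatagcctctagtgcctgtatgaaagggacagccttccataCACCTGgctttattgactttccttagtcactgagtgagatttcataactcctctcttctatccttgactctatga
H2al2a: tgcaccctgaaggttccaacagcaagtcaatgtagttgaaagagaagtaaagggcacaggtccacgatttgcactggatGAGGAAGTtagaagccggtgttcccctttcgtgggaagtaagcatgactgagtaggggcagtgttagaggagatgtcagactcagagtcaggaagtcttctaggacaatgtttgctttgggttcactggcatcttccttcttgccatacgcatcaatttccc
9130401M01Rik: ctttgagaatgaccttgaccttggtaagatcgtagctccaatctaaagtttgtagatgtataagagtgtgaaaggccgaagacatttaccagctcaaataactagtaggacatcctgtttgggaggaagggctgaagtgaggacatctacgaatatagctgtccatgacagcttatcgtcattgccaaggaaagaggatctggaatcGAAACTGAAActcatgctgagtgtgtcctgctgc

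Most opened regions were weak. Strength is given as the fragment pileup at the summit over the background pileup of the library, and a region without a peak has no value in the deposited lists. In Erg KO pre-proB cells the opened regions had a median of 4.49 times background, with the middle 50% between 4.04 and 5.38 and a maximum of 93.8. In Rescue pre-proB cells the median was 4.57, with the middle 50% between 4.13 and 5.44 and a maximum of 99.9. Regions with a peak in all 3 pre-proB libraries, called shared regions and numbering 83444, had a median of 13.2 in Erg KO cells. The 3422 regions in the opposite direction, with a peak in WT and in neither Erg-deficient pre-proB library, had a median of 4.57 in WT, so the opened regions and these WT-only regions were of similar strength at the median. Their upper ends differed, with a 90th percentile of 6.06 for opened regions in Erg KO and 7.7 for WT-only regions in WT. The median log2 ratio of Rescue to Erg KO was 0.03, with 99.6% of the opened regions within 2-fold, a closeness that the rule favours because it asked for a peak in both libraries and most peaks lay not far above the lowest called.

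The lack of a WT peak does not show closed chromatin. The weakest peak called in WT pre-proB cells, the WT floor, was 2.88 times background. Few peaks were called so low, since only 0.271% of shared regions had a WT peak within 2 fragments of it. A region without a peak could therefore hold a pileup above the floor, and multiples of it do not measure the excess over WT. Of the opened regions, 3628 (44.2%) reached 1.5 times this floor in both Erg-deficient libraries, 522 (6.36%) reached 2 times, 15 reached 3 times and 3 reached 10 times. In 261 opened regions (3.18%) a peak that met the rule was within 2 fragments of the lowest called pileup. Just outside the rule, 226 shared regions had a WT peak within 2 fragments of the lowest called WT pileup, and their median was 4.49 in Erg KO and 4.79 in Rescue pre-proB cells. A further 12180 regions lacked a WT peak and had a peak in only 1 of the 2 Erg-deficient libraries, with a median of 4.04 times background. Erg KO regions without a WT peak were 8.93% of all union regions, and 63.3% of them also had a Rescue pre-proB peak and so were opened. The 15618 Rescue regions without a WT peak were 10.8% of all union regions, and 52.5% of them also had an Erg KO peak. Of all 145247 union regions, 101428 had a Rescue pre-proB peak and 97880 an Erg KO peak, so neither 63.3% nor 52.5% was above the general share. The WT pre-proB list was also shorter, with 95662 peaks against 102605 in Erg KO and 105649 in Rescue. When every list was limited to its 76465 strongest peaks, 3327 regions were opened and 3668 were WT-only, so the excess of opened over WT-only regions was not seen with lists of equal length. The 2 counts are not mirror images, since an opened region needed a peak in 2 libraries and a WT-only region in 1. In bulk samples, fewer cells with an open region and less opening per cell cannot be told apart.

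**Figure D1:**
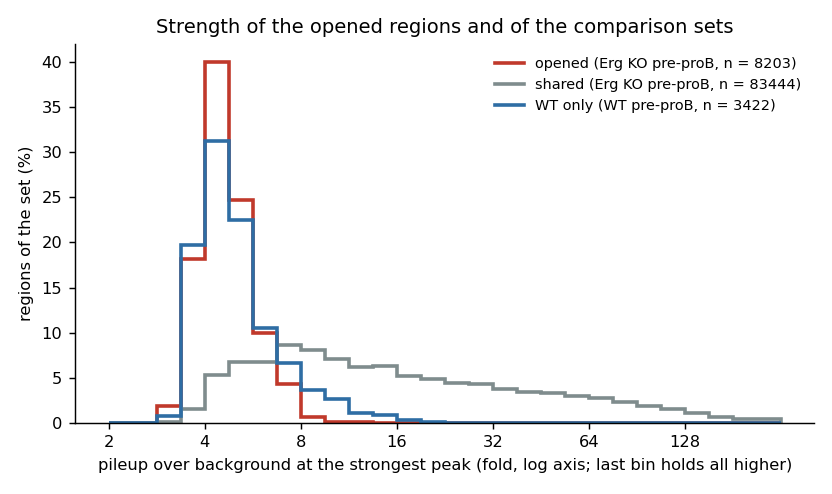
Share of regions by pileup over background (fold, log axis), in Erg KO pre-proB for the 8203 opened and 83444 shared regions and in WT pre-proB for the 3422 WT-only regions. The opened and WT-only regions lie mostly between 3 and 8 times background, while the shared regions extend far higher.

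The strongest opened regions clustered at the T-cell receptor alpha locus. Of the 15 opened regions at 3 or more times the WT floor, 8 were nearest to a Trav gene and 2 were on the Y chromosome. The region nearest to Trav14d-3-dv8, at chr14:53080312-53081175, had a pileup of 418 fragments in Erg KO and 459 in Rescue pre-proB cells, or 93.8 and 99.9 times background. It was 14.9 times background in Rescue proB and 7.8 times in Rescue preB cells, and no WT library had a peak there. A region at Trav13d-4 was 49.1 times background in Erg KO and 58.3 in Rescue pre-proB cells, and a further one at Trav14d-3-dv8 was 31.9 and 30 times. In Rescue proB and Rescue preB cells the Trav13d-4 region was 13.2 and 10.4 times background, below both pre-proB values.

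The stretch chr14:53033295-53140029, which holds 12 opened regions among 16 union regions, was without a peak in WT at every stage. Each of the 3 WT libraries had a peak in 0 of these 16 regions, and Erg KO pre-proB in 13. For Rescue the number was 14 at the pre-proB, 9 at the proB and 10 at the preB stage. Elsewhere among Trav genes WT cells did have peaks, since 41 of the 88 regions nearest to a Trav gene had one in WT pre-proB, up to 50.5 times background. Trav names that carry a d or an n belong to near-identical copies of a duplicated block, so the copy from which a read came is uncertain. The split followed the genotype of the mice at every stage, and a change in accessibility and a difference between the mouse lines in the number of copies of this block cannot be told apart. Across receptor loci, 22 of 98 T-cell receptor alpha regions (22.4%) were opened, where 5.65% of all union regions were, and 10 of 82 (12.2%) outside this stretch. The delta locus had 1 of 15, the beta locus 2 of 53, the gamma locus 0 of 2, the immunoglobulin heavy chain locus 11 of 332, the kappa locus 11 of 300 and the lambda locus 3 of 37.

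**Figure D2:**
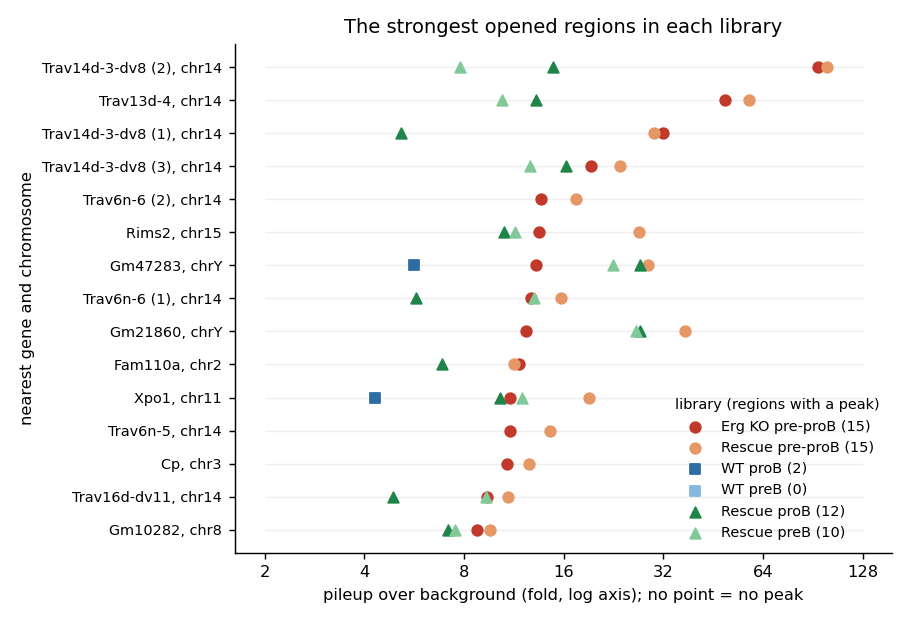
Pileup over background (fold, log axis) of the 15 strongest opened regions, 1 line per region named by its nearest gene, with 1 point per library that had a peak. WT proB had a peak in 2 of the 15 and WT preB in 0, whereas Rescue proB had one in 12 and Rescue preB in 10.

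Outside this locus the strongest opened regions were single sites, except for 2 close together on Y. The region 24920 bp from the start of Rims2, a synaptic vesicle gene, was 13.5 times background in Erg KO and 27 in Rescue pre-proB cells, and 10.6 and 11.4 in Rescue proB and preB cells, with no WT peak. A region near Xpo1, which encodes a nuclear export receptor, was 11 and 19.1 times background in the pre-proB libraries, 4.3 in WT proB, and 10.3 and 12 in the later Rescue stages. The Cp region, near the ceruloplasmin gene, was 10.8 in Erg KO and 12.6 in Rescue pre-proB cells and had no peak later. The regions placed on Y, at Gm47283 (chrY:90798900-90801170) and Gm21860 (chrY:90761183-90761923), lie among repeated gene copies. Whether their reads came from Y was not tested. Both regions were higher in Rescue than in Erg KO pre-proB cells, at 28.7 against 13.2 and 37.2 against 12.3 times background. Only 5 of the 8203 opened regions were on Y, where 51 union regions lay.

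With stages taken from the titles, most opened regions had no peak at any later stage. A peak was present in 2177 of the 8203 (26.5%, 95% interval 25.6 to 27.5) in WT proB, where 60.2% of all union regions had one, and in 1612 (19.7%, 18.8 to 20.5) in WT preB, against 49.5% of all. In Rescue proB 2250 (27.4%, 26.5 to 28.4) had a peak, against 59.1% of all union regions, and in Rescue preB 2089 (25.5%, 24.5 to 26.4), against 55.1%. Union regions without a pre-proB peak have a later one by construction, so these background shares are not those of regions chosen by pre-proB peaks. Among shared regions, which were chosen by pre-proB peaks as well, the shares were 66.5%, 60%, 75.6% and 66% in the same order. No later library had a peak in 4992 opened regions (60.9%), compared with 19.9% of shared and 26.4% of WT-only regions. All 4 later libraries had a peak in 1039 (12.7%), against 55.7% of shared and 40.3% of all union regions. With stages read from the source names the direction turned, and 69.4% and 66.1% of the 3007 regions then had a peak in WT proB and WT preB, and 69.5% and 74.9% in those stages of Rescue. By title, 705 (8.59%) were open later only in Rescue cells, against 10.9% of shared and 12% of all union regions. Another 477 (5.81%) were open later only in WT cells, against 2.4% of shared and 11.3% of all union regions. The other 990 were open in some but not all libraries of both genotypes.

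The lower persistence was also seen within a band of peak confidence. This band does not make the sets equal in strength, since 44 opened, 57118 shared and 228 WT-only regions lay above it. Among regions with a −log10 q, the confidence of the peak call, of 10 to 20 in Erg KO or, for WT-only regions, in WT pre-proB, WT proB cells had a peak in 29% of 1205 opened regions (26.6 to 31.7), in 54.1% of 14847 shared regions (53.3 to 54.9) and in 96.3% of 546 WT-only regions (94.4 to 97.6). Rescue proB cells had one in 33.7%, 56.5% and 78.8% of them. WT-only regions were thus retained in later WT cells far more often than opened regions were retained in any later library. In the 44 opened regions over 20, 14 (31.8%, 20 to 46.6) were open later only in Rescue cells, against 12.4% of the shared regions over 20, and 6 of these 14 lay in the Trav stretch of chromosome 14. Limiting all lists to 76465 peaks gave 29.5% in WT proB and 33.2% in Rescue proB for opened regions, and 64.3% and 53% for WT-only regions.

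**Figure D3:**
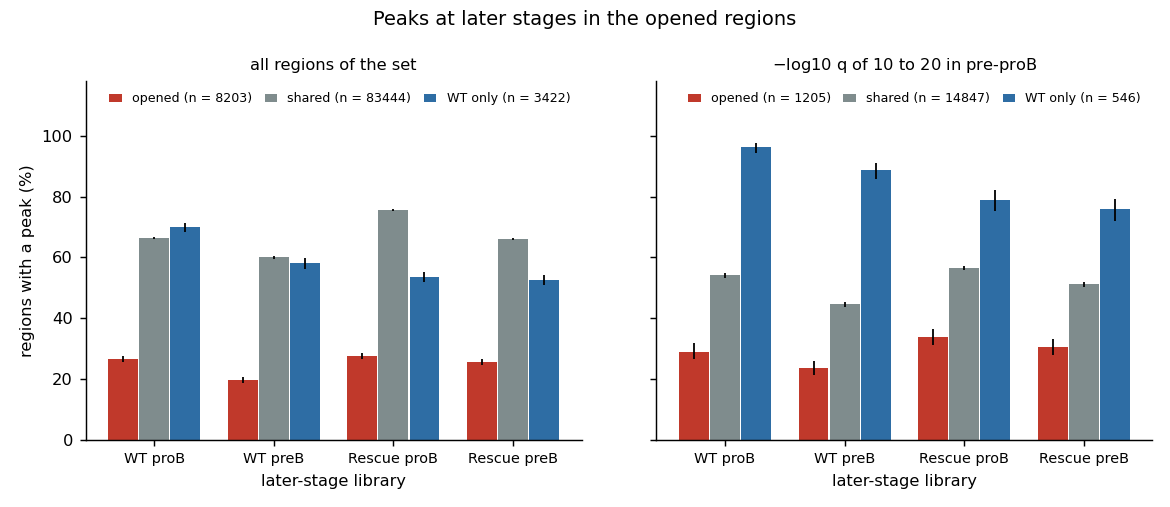
Share of opened, shared and WT-only regions with a peak in each later library, with 95% Wilson intervals as error bars, for all regions (left) and for those with a −log10 q of 10 to 20 in pre-proB cells (right). The opened regions are lowest in all 4 libraries on both sides.

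At the median, opened regions that were also open later had higher values there, each on its own library's background. These medians describe chosen regions and do not measure a gain in accessibility. The rule asked for no WT pre-proB peak, which favours weak pre-proB values, and each later median covers only regions with a called peak. The 2177 with a peak in WT proB had a median of 5.43 there against 4.71 in Erg KO pre-proB cells, and the 1612 with a peak in WT preB one of 6.18, also against 4.71. For Rescue the later medians were 5.44 at the proB and 6.24 at the preB stage. The regions at Trav14d-3-dv8 and Trav13d-4 with the highest values had lower ones at later stages. In the 1039 regions open in all 4 later libraries, the median was 4.71 times background in Erg KO and 4.79 in Rescue pre-proB cells, and 6.79 in WT proB, 7.02 in WT preB, with 6.59 and 7.8 at the same stages of Rescue. The region at the Igkj1 end of the kappa light chain locus, chr6:70718346-70719357, was 8.08 and 7.62 times background in the Erg KO and Rescue pre-proB libraries, 12.9 in WT proB, 18.8 in WT preB, and in Rescue 26.6 at the proB and 23.9 at the preB stage. It lies 3205 bp from the Igkj1 start and overlaps the annotated RNA Gm30211. The H2al2a region was 7.63 and 7.62 in the Erg-deficient pre-proB libraries, 19.9 and 13.2 in proB and preB cells of WT, and 20.6 and 28.6 in those of Rescue. The 9130401M01Rik region was 7.63 and 8.27 in the Erg-deficient pre-proB libraries, 8.15 and 9.82 in later WT cells, and 10.9 and 13.5 in later Rescue cells. Regions of this class had a peak at the proB and preB stages of both genotypes but, at the pre-proB stage, only in the Erg-deficient libraries. A region in an intron of Rps6ka2, a ribosomal S6 kinase gene, was open later only in WT, with 7.4 and 6.53 times background in the Erg-deficient pre-proB libraries, 5.21 in WT proB and no peak in WT preB or either later Rescue library, and a WT pre-proB peak lay 330 bp away.

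Opened regions lay away from promoters. Within 1000 bp of a start site were 738 (9%, 8.4 to 9.64), against 21.7% of shared, 8.68% of WT-only and 16.2% of all union regions. Introns held 47% and the space between genes 36.3%, against 48% and 33.5% of WT-only and 42% and 33.4% of all union regions. The median distance to the nearest start site was 25806 bp, against 17769.5 bp for shared and 24854.5 bp for WT-only regions, and the median width was 361 bp against 714 and 614 bp. Promoters made up 6.85% of the opened regions with no later peak and 14.3% of those open in all 4 later libraries. In 833 (10.2%) a WT pre-proB peak lay within 500 bp. Windows of which over 50% was repeat-masked made up 10.5% of opened, 5.59% of shared and 8.24% of WT-only regions.

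The T lineage was the gene list with the highest share of opened regions, but its interval included the share over all regions. Each union region was assigned to the nearest gene, and the share of opened regions was counted over 11 lists. Around 25 T-lineage genes 29 of 435 regions were opened (6.67%, 4.68 to 9.41), where 5.65% of all union regions were. The share was 5.5% for NK and innate lymphoid genes, 5.51% for plasmacytoid dendritic genes, 4.26% for myeloid genes and 5.69% for genes of the ETS family. It was lower than over all regions for 25 B-lineage genes, at 21 of 717 (2.93%, 1.92 to 4.44), for stem and progenitor genes, at 13 of 394 (3.3%, 1.94 to 5.56), and for the genes of the pre-proB sort and stage, at 6 of 286 (2.1%, 0.965 to 4.5). The intervals of the other lists, AP-1, cytokine receptor and erythroid and megakaryocyte genes, included 5.65%.

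**Figure D4:**
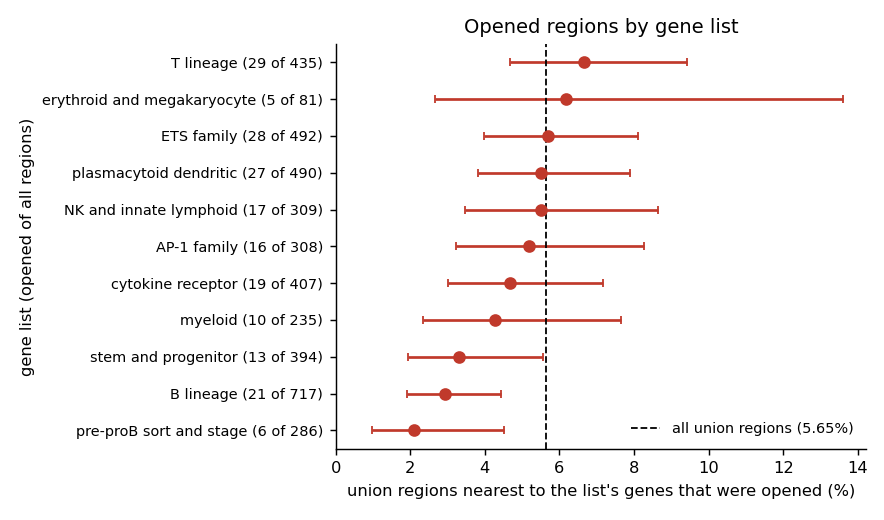
Share of the union regions nearest to each list's genes that were opened, with 95% Wilson intervals. The dashed line is the share over all union regions (5.65%), which lies above the intervals of the B-lineage, stem and progenitor, and pre-proB sort and stage lists.

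Promoters of 3 T-lineage genes, Tcf7, Bcl11b and Cd4, were among the opened regions and were named after their values were seen. Over all genes 738 of 23553 promoter regions (3.13%) were opened. Of the other lists, the opened regions included the promoters of Itga2b, a megakaryocyte integrin gene, and Ccr9, a chemokine receptor gene. By the rule these promoters had no peak in WT pre-proB cells, so the lack of a peak there is not a result. Tcf7 encodes TCF1, an early factor of T-cell specification, and its promoter region at chr11:52282679-52283631 was 6.06 times background in Erg KO and 5.66 in Rescue pre-proB cells. The same region was 12.5 in WT proB, 21.6 in WT preB, with 14.6 and 13.3 at the same stages in Rescue, and the nearest WT pre-proB peak was 9209 bp away. The Bcl11b promoter, of a factor required for T-cell commitment, was 4.26 in Erg KO, 3.7 in Rescue pre-proB and 8.83 in WT proB, with no other peak. The promoter of Cd4, the T-cell coreceptor, was 6.95 in Erg KO and 3.7 in Rescue pre-proB and had no peak later. An opened region 7497 bp from the start of Cd8a, a subunit of the other coreceptor, was 6.95 and 7.62 and likewise had no later peak. Of the 25 T-lineage promoters, 14 had a peak in proB and 10 in preB cells of WT, and 14 and 12 in those of Rescue. Over the pre-proB libraries, whose calls chose the regions, T-lineage promoters with a peak numbered 17 in WT and 20 in each Erg-deficient library, those of the 15 erythroid and megakaryocyte genes 5 and 7, and those of the 20 myeloid genes 13 in WT and Erg KO and 15 in Rescue. Whether cells of these lineages within the sorted populations contributed to these values was not tested.

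The list genes with 3 or more opened regions included several lymphoid regulators, at shares on either side of the 5.65% over all regions. Gata3, a factor of T-cell and innate lymphoid development, had 5 opened regions of 29 and 0 WT-only regions, the strongest at chr2:9810833-9811417, 67183 bp from the start, with 7.63 times background in Erg KO and 6.31 in Rescue pre-proB cells and no peak later. The other 4 Gata3 regions were between 3.37 and 5.83 in Erg KO cells. Nfil3, needed for innate lymphoid and NK cells, had 5 of 20 and 0 WT-only, from 3.14 to 5.16 times background in Erg KO cells, and Id2, the inhibitor of E proteins, had 4 of 87. Tox, a factor of T and innate lymphoid development, also had 4 opened regions, of 48. Zeb2, a zinc finger factor of dendritic cell development, had 5 of 110. Among ETS genes, Etv6 had 7 of 68, of which 5 had no later peak, and Ets1 had 5 of 76. On the B-lineage list, Bcl11a had 8 opened and 2 WT-only regions of 117 and Ikzf1 had 3 and 1 of 37. Ebf1, with fewer than 3, had 2 opened and 6 WT-only regions of 71. At least 1 opened region lay nearest to 14 of 25 T-lineage, 7 of 20 NK and innate lymphoid and 11 of 25 B-lineage genes. Opened regions of Gata3 and Nfil3 were separate weak sites outside these genes.

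No single gene held a large part of the opened regions. They lay nearest to 5357 genes, of which 120 had 5 or more and 3 had 10 or more. These counts depend on the set of start sites used. When non-coding genes were included, only 1 of the 20 genes with most opened regions kept its count within 1.5-fold, and Auts2 went from 13 to 1, Adgrl2 from 12 to 1, Tet2 from 9 to 0 and Bcl11a from 8 to 0. Auts2, a gene of neuronal development, had 13 of its 92 regions opened, 12 of them inside the gene, with no later peak in any but 1, and values from 3.37 to 6.06 in Erg KO cells. Thrb, the thyroid hormone receptor beta gene, and Adgrl2, an adhesion receptor gene, had 12 each, of 58 and 181 regions. Tet2, which encodes a DNA demethylase, had 9 of 58, none of them inside the gene itself, and Runx2, a RUNX factor, and Arid1b, a chromatin remodeller subunit, had 9 each, of 121 and 115. Bcl11a, a factor required for early B-cell development, had 8 of 117, of which the strongest in Erg KO cells were 5.83 times background. Klf6, Etv6, Ubash3b, Chst15, Rftn1 and Mctp2 had 7 each, of 46 to 70 regions, and all 7 regions of Mctp2 were without a later peak. Shroom3, a cytoskeletal gene, had the highest share of the 20 genes with most opened regions, at 8 of 26 (30.8%), and 3 of the 8 reached at least 10 times background in Rescue proB cells.

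The 200 kb window with most opened regions lay at the zinc finger genes of chromosome 4, chr4:147185207-147383570, with 13 of 69 regions, of which 9 were nearest to Zfp988. Here all but 1 were open at some later stage, WT proB in 8 and Rescue proB in 10. The Trav stretch followed with 12, in a shorter span and of fewer regions. The chromosome 4 regions were weak, between 3.37 and 6.73 times background in Erg KO cells for those of Zfp988. A cluster at the Prl2c genes of chromosome 13 had 10 of 111 and lay among near-identical gene copies as well. Clusters at Chst15 and Cpxm2 on chromosome 7 and at Onecut1 and Fam214a on chromosome 9 had 9 each, of 47 and 43 regions, and 7 of the 9 at Onecut1 had no later peak. By chromosome, opened regions made up between 4.98% and 6.57% of the union regions of each autosome, 6.03% of those on X and 9.8% of the 51 on Y.

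Binding patterns set the opened regions apart from WT-only regions more than from shared regions. Windows of 200 bp on either side of the summit were searched on both strands for 17 patterns, of which PU.1 and ETS share the letters GGAA, and the same letters in reverse order gave a background. The EBF1 pattern, TCCC and GGGA separated by 2 bases, was in 0.683% of opened windows (0.526 to 0.885), 0.872% of shared (0.812 to 0.938) and 6.55% of WT-only windows (5.76 to 7.42), with 2.02% over all union regions and 1.02% for the reversed pattern in the opened windows. The opened regions thus held it no more often than the reversed letters, and the WT-only regions held it far more often. In the −log10 q band of 10 to 20 the pattern was in 5 of 1205 opened windows (0.415%) and in 13.4% of WT-only windows. The OCT pattern ATGCAAAT was in 2.02% of opened, 2.07% of shared and 4.3% of WT-only windows. The ETS pattern, ACCGGAAG or ACAGGAAG, to which Erg and its relatives bind, was in 7.83% (7.26 to 8.43), 9.85% (9.65 to 10.1) and 13.7% (12.6 to 14.9), with 9.85% over all union regions and 4.9% for its reverse in opened windows.

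Patterns of PU.1, RUNX and IRF factors ran in the other direction. The PU.1 pattern GAGGAAGT was in 9.94% of opened windows (9.31 to 10.6), close to the 10.3% of shared and above the 6.25% (5.49 to 7.11) of WT-only windows, with 9.26% over all union regions and 3% for its reverse in opened windows. The RUNX pattern TGTGGTT was in 18.2% (17.3 to 19), 16.7% (16.4 to 16.9) and 15.6% (14.5 to 16.9), and in 15.7% of all union regions. Its reverse was in 6.58%, 5.7% and 5.76% of opened, shared and WT-only windows. The IRF pattern, GAAA units 2 bases apart, was in 10.5% (9.9 to 11.2), 8.65% and 5.99% (5.24 to 6.84), and in 8.01% of all union regions. The reversed IRF letters ran in the same order, at 7.25%, 6.2% and 5.79%, so WT-only windows held the pattern about as often as its reverse. The RUNX difference between opened and shared regions was 1.47 percentage points, and outside promoters it was −0.29, so it was not seen apart from promoters. Among regions with no later peak RUNX was in 20% of opened and 20.4% of shared windows and ETS in 7.13% and 6.88%, with overlapping intervals. Other comparisons within a later class did differ beyond them. Among regions open later only in Rescue cells RUNX was in 17% of opened (14.4 to 20) and 23.9% of shared windows (23.1 to 24.8), and among those with no later peak the E-box CAGCTG was in 28.5% (27.3 to 29.8) and 33.2% (32.4 to 33.9). The CTCF pattern, of an architectural factor, was in 4.21% of all opened windows, 1.72% of those with no later peak and 8.95% (7.36 to 10.8) of those open in all 4 later libraries. Shared regions showed the same order, with 0.877% and 7.52%, and 4.05% of all union regions held it. Patterns of TCF/LEF factors, CTTTGAT or CTTTGAA, were in 13.9% of opened windows, near the 13.4% of their reverse. The E-box patterns CAGCTG and CACCTG were in 26.5% and 29.3% of opened windows, below the 31% and 31.9% of shared and the 33.3% and 37.3% of WT-only windows. The remaining patterns differed by under 1 percentage point between opened windows and all union regions. GATA factor patterns, AGATAAG, were in 5.3% and 4.62%, and AP-1 patterns, TGACTCA or TGAGTCA, in 8.23% and 7.97%. CEBP patterns, TTGCGCAA or TTGCACAA, were in 1.58% and 1.32%, and FOX patterns, TGTTTAC, in 5.02% and 5.24%. For T-box (AGGTGTGA), NR4A (AAAGGTCA) and STAT (TTC and GAA separated by 3 bases) they were 1.79% and 1.89%, 1.74% and 1.7%, and 12.5% and 11.8%, and the reversed letters were as frequent or more so. A match is a description of the letters in a window and not a bound site.

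**Figure D5:**
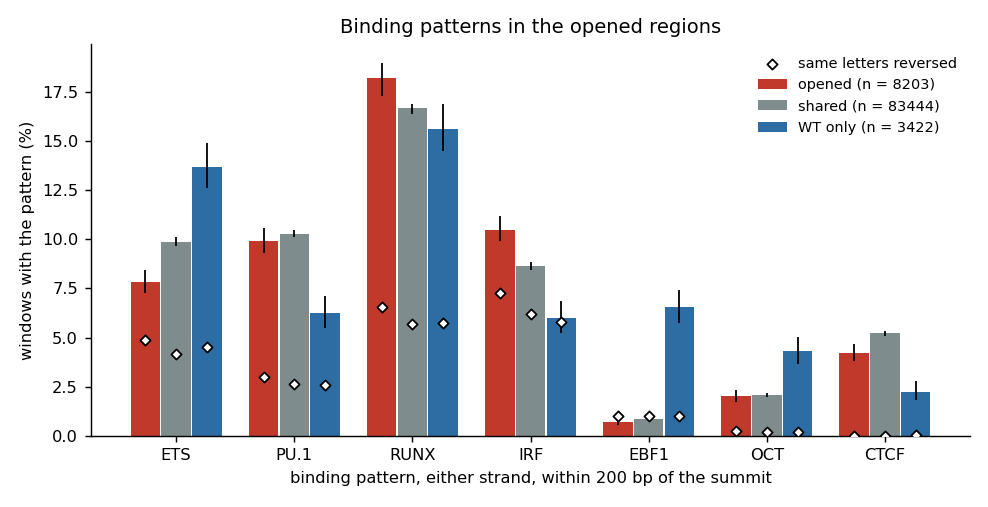
Share of windows with each binding pattern in opened, shared and WT-only regions, with 95% Wilson intervals, and the share with the same letters reversed as diamonds. WT-only windows are highest for ETS, EBF1 and OCT and lowest for PU.1, RUNX, IRF and CTCF. For RUNX the WT-only interval overlaps that of the shared windows.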

How the data were processed

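The study aligned paired-end ATAC-seq reads of sorted bone marrow cells to mm10 and called peaks per library. The labels name CASAVA 1.8.2, Bowtie2, Picard and MACS2 in the submitters' processing notes. The methods name sonication where the labels name Tn5, and options, duplicate handling and read-end shift were not given in the sources used here. Lists were not pooled. The authors deposited 1 narrowPeak list per library, with a score of 10 times the −log10 q, a fold that is a ratio of summit to background pileup, −log10 p and −log10 q values, and a summit offset in bp. The lists hold no read totals, and the minimum depth that the methods state was not used here.

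Here, peaks overlapping by at least 1 bp were merged into union regions in Python 3.11.15 (numpy 2.4.6, pandas 2.3.3). In each library 100% of the deposited folds fell on whole steps (tolerance 0.02), from which background pileups of 3.49 to 4.60 fragments and summit pileups were recovered, and these backgrounds stand for relative depth. Start sites were from GENCODE M21 (basic), with coding and antigen receptor genes used as the nearest gene, and windows were read from the RefSeq GRCm38 sequence. Merging, intervals, background recovery and pattern search were tested on simulated data, the merging against bedtools 2.31.1. Members and gene lists were chosen with earlier results of these data known. The regions named were the 8 strongest by the lower rank of both Erg-deficient pre-proB lists, at most 1 per 500 kb, and the 4 strongest of each later-stage class. The genes named were the 20 nearest to most members, the 5 densest windows of 200 kb, and list genes with most members or with 3 or more. Members at the promoters of list genes were added after their values were seen. No test was run, since each group had 1 library.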

Additional observations from a re-analysis of the deposited data

How the results depend on the processing

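The number of opened regions depended strongly on how presence was defined, while their low share at later stages did not, except under the source names. With all lists limited to 76465 peaks there were 3327 opened regions, with a peak in 29.5% and 29.2% of them in WT proB and WT preB, and in 33.2% and 33.9% in the same stages of Rescue, the order kept below. With 38232 peaks there were 1278, the shares were 21.4%, 24.2%, 29.3% and 28.4%, and promoters made up 13.2%. A −log10 q of at least 10 for presence left 612, with 28.9%, 23.2%, 37.3% and 33.2%, and 7.68% at promoters. A reciprocal overlap of 50% gave 22.8%, 17.6%, 25% and 21.8%. Stages from the source names gave 3007 regions, with 69.4%, 66.1%, 69.5% and 74.9%, in which the later stages of Rescue are other libraries. An alternative chosen after seeing the data, without Rescue pre-proB in the rule, gave 12968 regions, with 24.5%, 17.8%, 24.7% and 23.2%. A second one, regions over 500 bp from a WT pre-proB peak, kept 7370 regions with shares between 19.9% and 27.4%. With a promoter window of 2500 bp the promoter share was 18.2%.

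The ETS difference between opened and shared regions was −2.02 percentage points, and −3.44 with the lists of 38232. The RUNX difference of 1.47 was −0.29 outside promoters and the TCF/LEF difference of 1.30 was 0.23. With the nearest start site of any gene, including non-coding RNAs, 1 of the 20 named genes remained among the 20 with most regions, so gene names label positions and not targets. The cause of these changes was not tested. No paired analysis was possible because each group had 1 library and the labels give no replicate numbers. A region without a peak could hold the lowest called pileup or more, and sites in duplicated genes depend on how the authors placed reads.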
